A study of Mus musculus with 10 samples.

Results

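The 8 genes Nwd2, Snx7, Arhgap29, Dok5, Ndnf, Dgkz, Cdh10 and Dis3l2 were followed in cultured mouse cortical neurons treated with sodium arsenite. They were chosen by their measured arsenite-minus-vehicle differences in both genotypes, and each was read from its brightest probe set with a single gene symbol. They are 8 of 22180 genes measured. The 4 groups were ATF4-deficient neurons given 5 µM sodium arsenite (2 arrays), ATF4-deficient neurons given vehicle (2 arrays), wildtype neurons given the same dose of arsenite (4 arrays) and wildtype neurons given vehicle (2 arrays). The neurons came from the cortex of embryos at day 14.5 to 15.5 and were treated for 12 hours on day 7 in culture. The deleted stretch of Atf4 is not named in the labels, nor is it stated whether the deficiency was limited to some cells, nor whether replicates were separate embryos or cultures, so p-values measure the spread between these arrays. Values are the authors' log2 expression values, in which a difference of 1 is a doubling of signal.

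Arsenite binds thiol groups of proteins and stresses cells oxidatively, and ATF4 is a transcription factor that the integrated stress response raises to induce genes of amino acid supply and redox defence. The 8 genes belong to no single pathway. Nwd2 encodes a protein with NACHT and WD40-repeat domains, Snx7 a sorting nexin of endosomes, Arhgap29 a GTPase-activating protein that switches off RhoA, and Dok5 a docking adaptor of receptor tyrosine kinases. Ndnf encodes a secreted glycoprotein, Dgkz a kinase that turns the signalling lipid diacylglycerol into phosphatidic acid, Cdh10 a cell adhesion cadherin and Dis3l2 an exoribonuclease that degrades RNAs tailed with uridines.

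The labels of genotype and treatment were checked first. Atf4 averaged 7.62 ± 0.11 (SD, n = 2) in ATF4-deficient arsenite, 7.57 ± 0.12 (SD, n = 2) in ATF4-deficient vehicle, 9.69 ± 0.21 (SD, n = 4) in wildtype arsenite and 9.32 ± 0.34 (SD, n = 2) in wildtype vehicle arrays. Hmox1, the haem oxygenase gene that arsenite is known to induce, was 2.18 log2 higher with arsenite in ATF4-deficient and 3.25 log2 higher in wildtype neurons. Its ATF4-deficient arrays were wide apart (SD 0.51 with arsenite and 0.97 with vehicle, n = 2 each). The difference between its changes did not pass (limma adjusted p = 0.828). All 10 neuron markers and all 10 measured excitatory neuron markers averaged above 6.64, the level under which 90% of olfactory and vomeronasal receptor genes lay, which is used here as a mark of dim signal. Slc7a11, the cystine transporter gene, averaged 8.84 in wildtype arsenite arrays and lay under that level on average in every other group. It was nevertheless higher with arsenite in both genotypes. The rise was 1.43 log2 in ATF4-deficient (limma adjusted p = 0.0432) and 2.25 log2 in wildtype neurons (limma adjusted p = 0.00573). The difference between these rises did not pass (limma adjusted p = 0.836). Array medians lay between 7.00 and 7.09. On the first principal component the second ATF4-deficient arsenite array was far from the rest (29.4, against -18.2 to 8.70 for the other 9 arrays), so falls are also given without it.

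All 8 genes were lower with arsenite in both genotypes. They lay among the 21 genes, 0.0947% of those tested, that were lower past an adjusted p of 0.05 in limma in ATF4-deficient and in wildtype neurons. Because these differences chose the genes, the falls are a description and carry no test. Over the 8 genes the log2 change ran between -1.30 and -0.52 (median -0.90) in ATF4-deficient neurons and between -1.29 and -0.44 (median -0.91) in wildtype neurons, beside medians of -0.01 and -0.02 over all genes. The share of all genes lower past the threshold was 0.523% in ATF4-deficient and 0.252% in wildtype neurons. In each genotype, no arsenite array of any of the 8 genes reached a vehicle array, an arrangement that 20.7% of all genes showed in ATF4-deficient and 12.7% in wildtype neurons (4.82% in both).

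**Figure D1:**
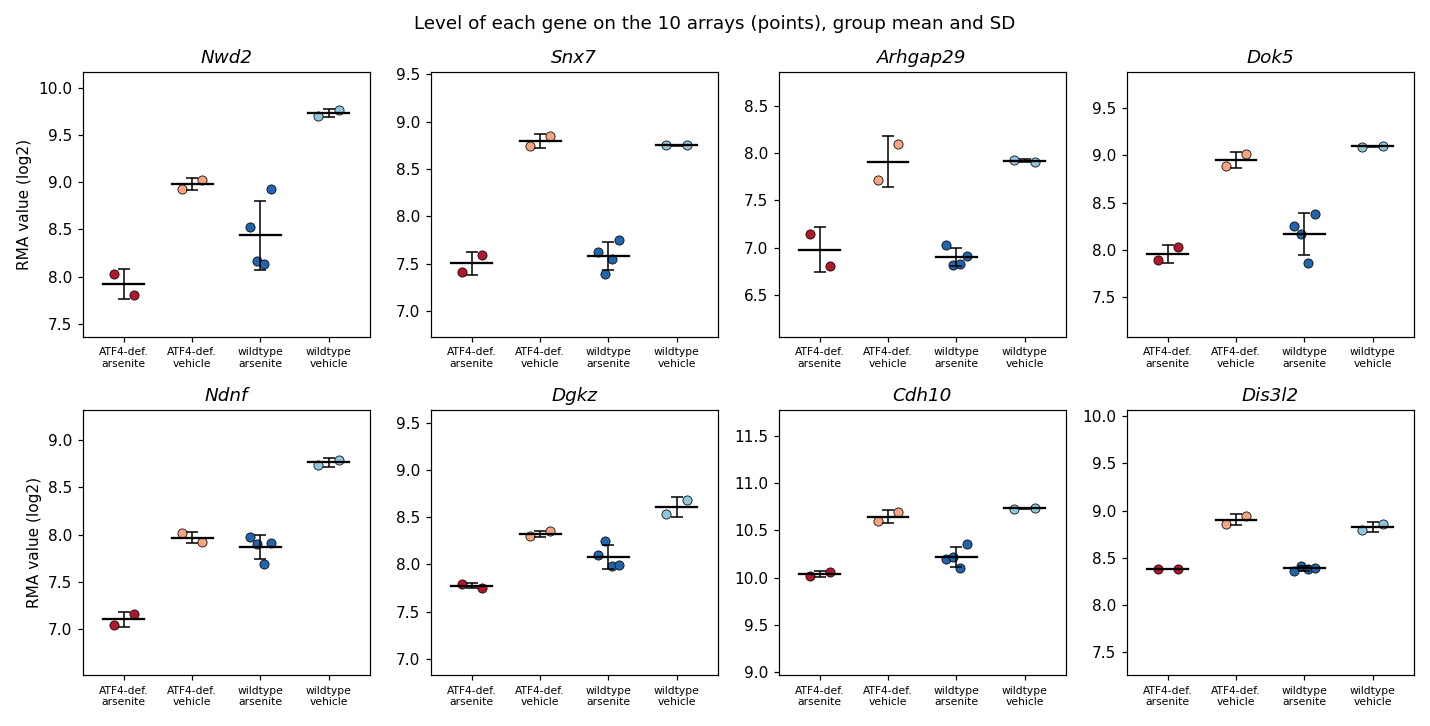
Log2 expression value of each gene on each array (points), with the group mean (bar) and SD (whiskers), for ATF4-deficient arsenite, ATF4-deficient vehicle, wildtype arsenite and wildtype vehicle neurons. Every panel spans the same number of log2 units. Arsenite arrays lie under the vehicle arrays of the same genotype in all 8 panels, and the ATF4-deficient arrays of Nwd2, Ndnf, Dgkz and Cdh10 lie under the wildtype arrays of the same treatment.

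Snx7 had the steepest fall of the 8 in ATF4-deficient neurons. Sorting nexins of its kind bind membrane lipids and bend endosomal membranes, and SNX7 pairs with SNX4 in recycling of endosomal cargo. Its values were 7.42 and 7.59 in ATF4-deficient arsenite arrays, against 8.75 and 8.85 in ATF4-deficient vehicle arrays. In wildtype neurons they were 7.63, 7.39, 7.55 and 7.75 with arsenite, against 8.75 and 8.75 with vehicle. The vehicle arrays of both genotypes thus lay together near the top and the arsenite arrays of both genotypes overlapped at the bottom. The fall was -1.30 log2 (SE 0.12) in ATF4-deficient neurons, or 2.46-fold, and -1.17 (SE 0.11), or 2.25-fold, in wildtype neurons. Among all genes this ranked 11th steepest in ATF4-deficient and 6th in wildtype neurons.

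Nwd2 had the steepest fall of the 8 in wildtype neurons. What the protein does in neurons is little known. Its values were 8.03 and 7.81 in ATF4-deficient arsenite arrays, against 8.93 and 9.02 in ATF4-deficient vehicle arrays. They were 8.52, 8.17, 8.14 and 8.92 in wildtype arsenite arrays, against 9.70 and 9.76 in wildtype vehicle arrays. The 4 groups did not overlap: wildtype vehicle was highest, then ATF4-deficient vehicle, then wildtype arsenite, and ATF4-deficient arsenite was lowest. Wildtype arsenite replicate 4, at 8.92, came close to the ATF4-deficient vehicle arrays, and the other three did not. The fall was -1.06 log2 (SE 0.22) in ATF4-deficient and -1.29 (SE 0.19) in wildtype neurons. Nwd2 had the widest spread among the wildtype arsenite arrays (SD 0.37, n = 4), with replicates 1 and 4 above replicates 2 and 3. A second, dimmer Nwd2 probe set moved far less, by -0.11 log2 in ATF4-deficient and -0.24 in wildtype neurons. The mean of both probe sets gave falls of -0.59 in ATF4-deficient and -0.77 in wildtype neurons.

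Arhgap29, which acts downstream of the small GTPase Rap1 to lower RhoA activity and is best known from endothelial cells had modest signal. It had values of 7.15 and 6.81 in ATF4-deficient arsenite arrays, against 7.72 and 8.10 in ATF4-deficient vehicle arrays. In wildtype neurons the values were 7.03, 6.82, 6.83 and 6.91 with arsenite, against 7.93 and 7.91 with vehicle. The groups ordered by treatment alone, and the ATF4-deficient pairs were the widest apart (SD 0.24 with arsenite and 0.27 with vehicle). The fall was -0.93 log2 (SE 0.15) in ATF4-deficient and -1.02 (SE 0.13) in wildtype neurons. Its arsenite values were the ones nearest the dim level of 6.64.

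Dok5 encodes an adaptor that binds phosphorylated Ret and Trk receptors. It was at 7.89 and 8.03 in ATF4-deficient arsenite arrays, against 8.89 and 9.01 in ATF4-deficient vehicle arrays. It was at 8.25, 8.17, 7.86 and 8.38 in wildtype arsenite arrays, against 9.09 and 9.10 in wildtype vehicle arrays. Arsenite arrays of the 2 genotypes overlapped, while each wildtype vehicle array lay slightly above both ATF4-deficient vehicle arrays. The fall was -0.99 log2 (SE 0.15) in ATF4-deficient and -0.93 (SE 0.13) in wildtype neurons.

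Ndnf, neuron-derived neurotrophic factor, marks neurogliaform interneurons of the outermost cortical layer in the mouse and is also made by Cajal-Retzius cells. It was at 7.05 and 7.16 in ATF4-deficient arsenite arrays, against 8.01 and 7.93 in ATF4-deficient vehicle arrays. It was at 7.98, 7.90, 7.69 and 7.91 in wildtype arsenite arrays, against 8.73 and 8.80 in wildtype vehicle arrays. The ATF4-deficient vehicle arrays (mean 7.97) overlapped the wildtype arsenite arrays (mean 7.87). The fall was -0.87 log2 (SE 0.11) in ATF4-deficient and -0.89 (SE 0.10) in wildtype neurons.

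The remaining 3 genes fell less. Dgkz encodes a diacylglycerol kinase that binds the postsynaptic scaffold and ends diacylglycerol signals there. It was at 7.79 and 7.76 in ATF4-deficient arsenite arrays against 8.30 and 8.35 in ATF4-deficient vehicle arrays, and at 8.10, 8.25, 7.98 and 7.99 in wildtype arsenite arrays against 8.53 and 8.68 in wildtype vehicle arrays. The falls were -0.55 log2 (SE 0.11) in ATF4-deficient and -0.53 (SE 0.10) in wildtype neurons, and the levels formed 4 steps without overlap. Its second probe set averaged 5.33, under the dim level, and changed by 0.11 in ATF4-deficient and 0.02 in wildtype neurons. The mean of both probe sets gave -0.22 in ATF4-deficient and -0.25 in wildtype neurons.

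Cdh10, a type II cadherin that holds neurons together at synapses, was at 10.02 and 10.06 in ATF4-deficient arsenite arrays against 10.59 and 10.69 in ATF4-deficient vehicle arrays, and at 10.19, 10.22, 10.10 and 10.35 in wildtype arsenite arrays against 10.73 and 10.73 in wildtype vehicle arrays. The falls were -0.61 (SE 0.10) in ATF4-deficient and -0.52 log2 (SE 0.09) in wildtype neurons. Dis3l2 had closely spaced arsenite values: 8.39 and 8.38 in ATF4-deficient arsenite arrays against 8.86 and 8.94 in ATF4-deficient vehicle arrays, and 8.36, 8.42, 8.38 and 8.40 in wildtype arsenite arrays against 8.79 and 8.86 in wildtype vehicle arrays. Its falls were -0.52 log2 (SE 0.09) in ATF4-deficient and -0.44 (SE 0.08) in wildtype neurons, and the arsenite arrays of the genotypes overlapped. Signals of different probe sets are not comparable in amount, so levels are compared between groups only.

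The arsenite arrays read whole cultures, so fewer cells of a type and less RNA per cell cannot be told apart. Without ATF4-deficient arsenite replicate 2 the ATF4-deficient falls were -0.95 for Nwd2, -1.38 for Snx7, -0.76 for Arhgap29, -1.06 for Dok5, -0.92 for Ndnf, -0.53 for Dgkz, -0.63 for Cdh10 and -0.52 for Dis3l2. Every fall stayed below 0 under all 17 other settings tried (272 of 272 values). With single arrays left out this was fixed beforehand, since no arsenite array reached a vehicle array of its genotype. Several other settings leave the estimate itself unchanged. These signs therefore carry no test of the falls. The number of the 8 past the threshold moved much more. Leaving out any one of the 4 ATF4-deficient arrays lowered it in ATF4-deficient neurons, and leaving out either vehicle array lowered it in wildtype neurons. Those fits leave a single array in a group. Fewer of all genes passed with any single array left out as well, so a lower number is not particular to the 8. In ATF4-deficient neurons the number of the 8 was 6, 7, 7 and 7 without wildtype arsenite replicates 1, 2, 3 and 4. In wildtype neurons it was 5, 3, 4 and 6 without the same arrays. It was also 5 without any one of the 4 ATF4-deficient arrays, which enter the wildtype comparison only through the shared estimate of spread.

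**Figure D2:**
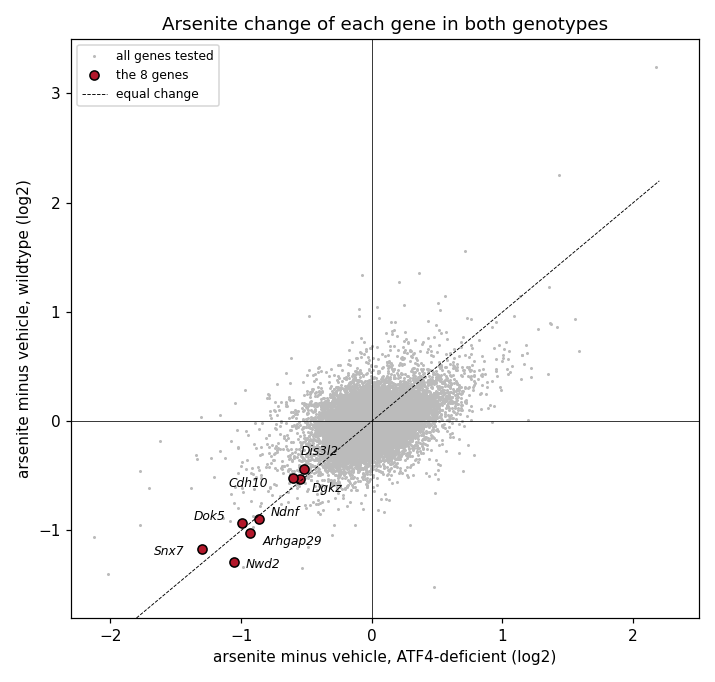
Arsenite minus vehicle (log2) in ATF4-deficient neurons (horizontal) and wildtype neurons (vertical) for the 22180 genes (grey) and the 8 genes (red); the dashed line marks equal change. The 8 genes lie near that line, with Nwd2 below it (-1.06 in ATF4-deficient, -1.29 in wildtype) and Snx7 above it (-1.30 in ATF4-deficient, -1.17 in wildtype).

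The main question for these genes was whether the fall differed with ATF4. The ATF4-deficient fall was between 81.9% (Nwd2) and 119% (Dis3l2) of the wildtype fall on the log2 scale, and it was the steeper one for Snx7, Dok5, Dgkz, Cdh10 and Dis3l2. The difference between the falls, ATF4-deficient minus wildtype, was largest for Nwd2 at 0.23 log2, with a 95% interval of -0.39 to 0.86. For Snx7 it was -0.12 (-0.48 to 0.23), for Arhgap29 0.09 (-0.33 to 0.52) and for Dok5 -0.06 (-0.49 to 0.37). The intervals were narrower for the genes with tight replicates: 0.03 (-0.30 to 0.35) for Ndnf, -0.03 (-0.35 to 0.30) for Dgkz, -0.09 (-0.39 to 0.21) for Cdh10 and -0.08 (-0.34 to 0.17) for Dis3l2. Of the 8 differences, 0 passed (limma, adjusted p between 0.922 and 0.987) and 0 had an unadjusted p under 0.05. Over all genes 0 passed as well (0% of 22180), with 1330 at an unadjusted p under 0.05. Genes chosen for falling in both genotypes have little room for a large difference, and an interval as wide as that of Nwd2 does not show that the falls were alike.

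**Figure D3:**
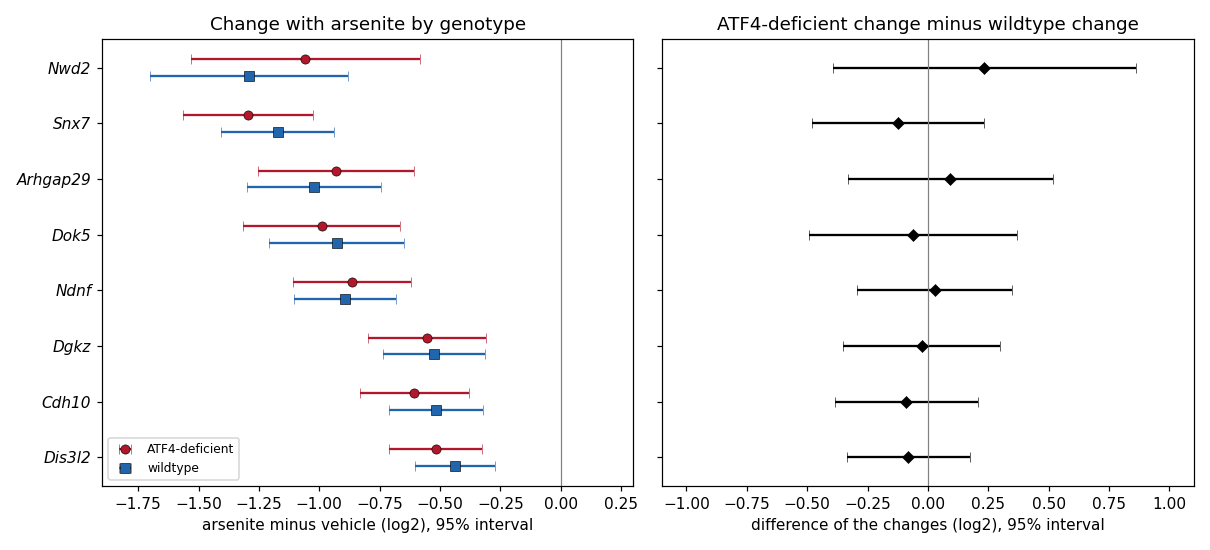
Left, arsenite minus vehicle (log2) for each gene in ATF4-deficient (circles) and wildtype neurons (squares); right, the ATF4-deficient change minus the wildtype change (diamonds); lines are 95% intervals from limma. All 16 falls lie below 0, and all 8 intervals of the difference include 0.

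Levels were also compared between genotypes within each treatment. These comparisons use the arrays that gave the falls, so they are not independent of how the genes were chosen, although the choice did not rest on them. Ndnf was lower in ATF4-deficient neurons under both treatments, at -0.77 log2 under arsenite (SE 0.10, limma adjusted p = 0.00793) and at -0.79 under vehicle (SE 0.11, limma adjusted p = 0.0218), that is at 58.8% of the wildtype level under arsenite and 57.7% under vehicle. Within each treatment the arrays of the genotypes did not overlap. It was the single one of the 8 that passed, where 0.271% of all genes were lower past the threshold under arsenite and 0.252% under vehicle. The call under arsenite was lost without ATF4-deficient arsenite replicate 1 (-0.71, adjusted p = 0.0785) or replicate 2 (-0.82, adjusted p = 0.109). Leaving out any one of the 4 vehicle arrays ended the vehicle call, with values between -0.84 and -0.75 and adjusted p between 0.0521 and 0.231.

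Nwd2 was lower by estimate under arsenite (-0.52 log2, SE 0.19, limma adjusted p = 0.310) and vehicle (-0.75, SE 0.22, limma adjusted p = 0.185), with no overlap of arrays in either treatment and no pass. Dgkz was likewise at -0.31 (SE 0.10, limma adjusted p = 0.247) under arsenite and -0.28 (SE 0.11, limma adjusted p = 0.378) under vehicle without overlap. Cdh10 was at -0.18 under arsenite and -0.09 under vehicle, also without overlap. Such separation in the lower direction was found for 7.95% of all genes under arsenite and 21.4% under vehicle, and for 4 of the 8 under arsenite and 5 under vehicle. Small genotype differences were seen for Snx7 (-0.08 under arsenite and 0.05 under vehicle), Arhgap29 (0.08 under arsenite and -0.01 under vehicle) and Dis3l2 (-0.01 under arsenite and 0.07 under vehicle), all within 0.1 log2. Their 95% intervals reached at most 0.36 log2 from 0. Dok5 lay between, at -0.21 under arsenite and -0.14 under vehicle.

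**Figure D4:**
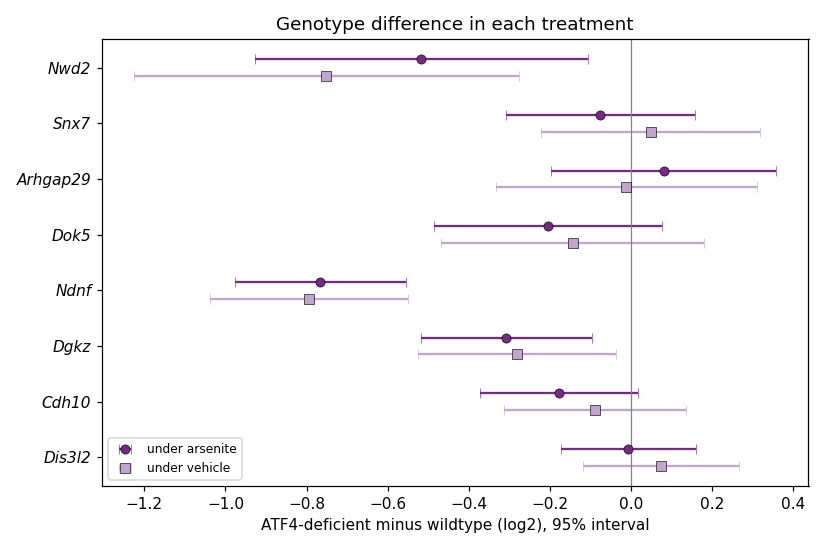
ATF4-deficient minus wildtype (log2) for each gene under arsenite (circles) and under vehicle (squares), with 95% intervals from limma. Under arsenite Ndnf lies at -0.77, Nwd2 at -0.52 and Dgkz at -0.31, and under vehicle at -0.79, -0.75 and -0.28, while Snx7, Arhgap29 and Dis3l2 lie within 0.1 of 0.

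Mean levels of some cell type markers differed between the groups. The mean level of 12 measured astrocyte markers was 6.98 to 7.34 in ATF4-deficient arsenite, 7.07 to 7.42 in ATF4-deficient vehicle, 7.42 to 7.91 in wildtype arsenite and 7.97 to 8.18 in wildtype vehicle arrays. Of these 12, 1 was lower past the threshold in ATF4-deficient neurons under arsenite (Sox9, where 0.343% of all genes passed in either direction) and 1 under vehicle (Gfap, where 0.433% passed), and S100b, Fgfr3 and Gjb6 averaged under the dim level. The 10 measured inhibitory neuron markers averaged 8.60 to 9.05 in ATF4-deficient arsenite, 8.83 to 9.14 in ATF4-deficient vehicle, 9.10 to 9.34 in wildtype arsenite and 9.22 to 9.34 in wildtype vehicle arrays, and none passed in the 4 comparisons. Neuron markers averaged 10.29 to 10.47 over all 10 arrays, and none passed in those comparisons, and 7 of 9 endothelial markers averaged under the dim level. Of the other lists, called members were Pdgfra (-0.76 with arsenite in wildtype), Olig2 (-1.03 for genotype under arsenite) and Rgs5. Rgs5 was lower with arsenite in ATF4-deficient neurons and higher in ATF4-deficient than in wildtype neurons under vehicle, with a mean of 7.59 in ATF4-deficient vehicle arrays and means under the dim level in the other three groups. The part of these cell types in the falls and in the genotype difference of Ndnf was not tested.

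Other markers of the cells that make Ndnf were read beside it. Of 6 genes of neurogliaform interneurons, Ndnf was the single one called in either arsenite comparison or either genotype comparison. Its arsenite calls came with its choice. Over all genes, 1.15% passed with arsenite in ATF4-deficient and 0.482% in wildtype neurons, 0.343% for genotype under arsenite and 0.433% under vehicle. At such shares no call is expected among the other genes of a list this short. Reln, an extracellular glycoprotein of both neurogliaform and Cajal-Retzius cells, was at -0.11 log2 with arsenite in ATF4-deficient and -0.03 in wildtype neurons, and at -0.40 for genotype under arsenite and -0.32 under vehicle. The neuropeptide gene Npy was at 0.00 with arsenite in ATF4-deficient and -0.05 in wildtype neurons, and at -0.65 for genotype under arsenite and -0.70 under vehicle. Id2, a transcriptional regulator, was at -0.30 with arsenite in ATF4-deficient and -0.37 in wildtype neurons, and at 0.18 for genotype under arsenite and 0.12 under vehicle. The remaining genes were Lamp5 and Nos1, which encode a lysosome-associated membrane protein and the neuronal nitric oxide synthase. Lamp5 was at -0.33 with arsenite in ATF4-deficient and 0.03 in wildtype neurons, and at -0.18 for genotype under arsenite and 0.17 under vehicle. Nos1 was at 0.27 with arsenite in ATF4-deficient and -0.29 in wildtype neurons, and at -0.05 for genotype under arsenite and -0.61 under vehicle. The other five genes thus had values of both signs, and none of these values passed. Of 9 Cajal-Retzius markers Ndnf was again the single one called, and 7 averaged above the dim level. The transcription factor genes Trp73, Lhx1 and Lhx5 had group means of 5.23 to 6.76. Trp73 averaged just above the dim level, and Lhx1 and Lhx5 averaged under it.

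Relatives and partners of each gene were examined on lists that contain the gene itself. That gene's pass with arsenite came with its choice, so only the other members of a list were open to pass or not. Over all genes, 1.15% passed in either direction with arsenite in ATF4-deficient neurons and 0.482% in wildtype neurons. At such shares, few or no passes are expected among the other members of lists this short. Of 12 sorting nexins with a BAR domain, Snx7 alone passed in each genotype (in wildtype not without vehicle replicate 1), and the list's median was 0.03 in ATF4-deficient and -0.00 in wildtype neurons. Its partner Snx4 was at 0.07 in ATF4-deficient and 0.01 in wildtype neurons, and its close relative Snx30 at 0.12 in ATF4-deficient and 0.05 in wildtype neurons. The largest other change was in Snx32, at -0.62 in ATF4-deficient (limma adjusted p = 0.35) and -0.61 in wildtype neurons (limma adjusted p = 0.31). Of 18 measured genes of Rap1 and RhoA signalling Arhgap29 alone passed in each genotype, with a median of -0.04 in ATF4-deficient and -0.09 in wildtype neurons. The call was lost in ATF4-deficient neurons without ATF4-deficient arsenite replicate 2 or vehicle replicate 2, and in wildtype neurons without either wildtype vehicle array. The largest other change in ATF4-deficient neurons was in Rock1, a RhoA-activated kinase gene, at 0.57 there and 0.23 in wildtype neurons. In wildtype neurons it was in Gmip, another GTPase-activating protein gene for RhoA, at -0.20 in ATF4-deficient and -0.42 in wildtype neurons, and neither gene passed. Rhoa itself was at -0.07 in ATF4-deficient and -0.13 in wildtype neurons.

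Of 14 measured Dok adaptors, related adaptors and receptors, Dok5 alone passed, with a median of -0.00 in ATF4-deficient and -0.01 in wildtype neurons. The call was lost in ATF4-deficient neurons without any one of the 4 ATF4-deficient arrays, and in wildtype neurons without either wildtype vehicle array or wildtype arsenite replicate 2. The neuronal relative Dok6 was at 0.21 in each genotype. Ntrk2, the receptor of brain-derived neurotrophic factor, was at -0.49 in ATF4-deficient (limma adjusted p = 0.16) and -0.43 in wildtype neurons (limma adjusted p = 0.18). Of 8 measured diacylglycerol kinases Dgkz alone passed. Its call was kept in 1 of 10 fits with an array left out in ATF4-deficient neurons (without wildtype arsenite replicate 2) and in 0 of 10 in wildtype neurons, and was lost in both genotypes with averaged probe sets. Dgkd was at -0.32 in ATF4-deficient and -0.46 in wildtype neurons, and Dgke at 0.36 in ATF4-deficient and -0.00 in wildtype neurons, without passing. Of 17 measured RNA exonucleases, exosome subunits and uridylation genes Dis3l2 alone passed. Its call was lost in ATF4-deficient neurons without any one of the 4 ATF4-deficient arrays, and in wildtype neurons without any one of the 10 arrays. Tut4, which adds the uridine tails that DIS3L2 recognises, was at 0.64 in ATF4-deficient and 0.19 in wildtype neurons. The exosome nuclease genes Dis3 and Dis3l were at 0.08 and 0.02 in ATF4-deficient and at 0.07 and -0.23 in wildtype neurons. Of 3 measured NACHT and WD40-repeat genes Nwd2 alone passed. Its call was kept in ATF4-deficient neurons only without wildtype arsenite replicate 3 or 4, and was lost in wildtype neurons without either wildtype vehicle array or wildtype arsenite replicate 2 or 3. Nwd1 was at 0.39 in ATF4-deficient and -0.24 in wildtype neurons.

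Of 13 type II cadherins, 4 fell with arsenite in ATF4-deficient neurons: Cdh18 (-0.84 log2, SE 0.12, limma adjusted p = 0.0096), Cdh9 (-0.69, SE 0.12, limma adjusted p = 0.0245), Cdh6 (-0.63, SE 0.12, limma adjusted p = 0.0328) and Cdh10. In wildtype neurons Cdh10 alone passed, with Cdh9 at -0.43, Cdh6 at -0.31 and Cdh18 at -0.01. CDH6, CDH9 and CDH10 are known to form an adhesive subgroup whose members bind each other. The list's median was -0.41 in ATF4-deficient and -0.04 in wildtype neurons. The genotype difference of the change was -0.82 for Cdh18 (limma adjusted p = 0.347) and did not pass for any of the 13. For genotype under vehicle Cdh18 was at 0.59 (limma adjusted p = 0.0576), Cdh6 at 0.17 and Cdh9 at -0.24. Under arsenite Cdh18 was at -0.23, Cdh6 at -0.14 and Cdh9 at -0.49, and none of these values passed. In place of 4, the ATF4-deficient count was 0 without arsenite replicate 1, 1 without arsenite replicate 2, 2 without vehicle replicate 1 and 0 without vehicle replicate 2. The wildtype count of 1 was kept without wildtype arsenite replicate 4 and was 0 without each of the other 9 arrays.

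**Figure D5:**
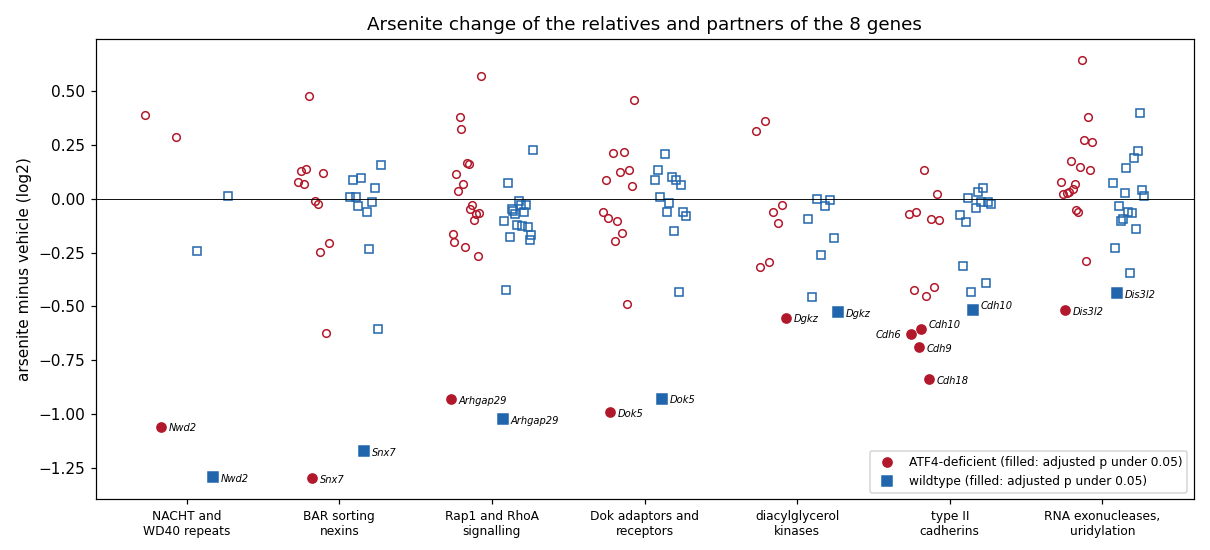
Arsenite minus vehicle (log2) for every measured gene of 7 lists, in ATF4-deficient (red circles) and wildtype neurons (blue squares); filled symbols passed an adjusted p of 0.05 in limma and are named. In 6 lists the named gene is the one the list was built around, while the type II cadherins hold 4 filled circles and 1 filled square.

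The 8 genes are scattered over chromosomes 1, 2, 3, 5, 6 and 15. Snx7 and Arhgap29 lie on chromosome 3 with 10 measured protein-coding genes between them, of which 0 passed with arsenite in either genotype (limma). Of the 16 nearest measured protein-coding neighbours, 2 passed in ATF4-deficient neurons, where 1.15% of all genes passed. They were Plppr5 beside Snx7 (-0.87) and Cdh9 beside Cdh10 (-0.69), and Cdh9 is also on the cadherin list. In wildtype neurons 0 passed (limma), where 0.482% of all genes did, with Plppr5 at -0.45 and Cdh9 at -0.43. The neighbours' median change was -0.03 in ATF4-deficient and -0.01 in wildtype neurons.

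Promoter sequence (GRCm38.p6) was available for 6 genes, Nwd2, Snx7, Arhgap29, Dgkz, Cdh10 and Dis3l2, and not for Dok5 and Ndnf. It was read as the 250 bases before each of the 8 listed starts of these 6 genes. The windows of 4 genes were picked to show how the number of CG dinucleotides differed between genes with falls of similar size. They were Nwd2 and Snx7 among the steeper falls, and Cdh10 and Dis3l2 among the shallower. Each is written from 5′ to 3′ on the gene's strand, with CG dinucleotides in capitals. Nwd2 is chr5:63648853-63649102 (+), Snx7 is chr3:117868937-117869186 (-), Cdh10 is chr15:18820079-18820328 (+) and Dis3l2 is chr1:86703554-86703803 (+).
Nwd2: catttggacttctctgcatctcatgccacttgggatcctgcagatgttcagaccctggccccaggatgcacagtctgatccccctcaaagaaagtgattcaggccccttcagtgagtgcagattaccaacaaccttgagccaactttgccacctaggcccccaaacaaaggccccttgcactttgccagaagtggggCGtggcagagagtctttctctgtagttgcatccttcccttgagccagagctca
Snx7: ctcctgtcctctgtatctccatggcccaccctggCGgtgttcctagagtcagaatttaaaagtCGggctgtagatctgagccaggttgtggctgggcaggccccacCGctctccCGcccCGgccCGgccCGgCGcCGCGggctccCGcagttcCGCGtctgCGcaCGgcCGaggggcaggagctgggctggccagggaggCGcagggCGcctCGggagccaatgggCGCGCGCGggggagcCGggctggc
Cdh10: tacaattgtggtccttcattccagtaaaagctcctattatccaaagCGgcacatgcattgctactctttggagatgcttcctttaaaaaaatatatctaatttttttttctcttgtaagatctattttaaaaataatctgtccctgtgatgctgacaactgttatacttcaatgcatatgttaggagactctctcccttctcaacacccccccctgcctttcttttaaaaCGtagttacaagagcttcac
Dis3l2: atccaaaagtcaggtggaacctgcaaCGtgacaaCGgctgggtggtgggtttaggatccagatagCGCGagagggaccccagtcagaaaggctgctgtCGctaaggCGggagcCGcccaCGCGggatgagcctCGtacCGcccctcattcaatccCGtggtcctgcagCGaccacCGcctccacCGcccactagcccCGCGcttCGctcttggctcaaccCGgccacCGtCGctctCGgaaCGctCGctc
The Nwd2 window held 1 CG dinucleotide and the Cdh10 window 2, against 24 each in the Snx7 and Dis3l2 windows and a median of 6 over 32851 windows of the same length. The windows not shown held 14 and 6 for Arhgap29 and 9 and 33 for Dgkz. GC content was 53.6% for Nwd2, 72.4% for Snx7, 36.8% for Cdh10 and 64.8% for Dis3l2, around a median of 52.4%. The cAMP response element TGACGTCA, searched on both strands, was in 0 of the 8 windows and in 1.55% of all windows. The composite C/EBP-ATF element TGATGNAAN, to which ATF4 binds with a C/EBP partner, was also in 0 of the 8 windows, and in 3.44% of all windows. The absence says only that these letters were not in these 250 bases.

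Genes with the most similar pattern over the 10 arrays were found by the root mean square difference of log2 values after each gene's own mean was subtracted. Dgkz was nearest to Pcnx3 (0.061 log2) and the glycosyltransferase gene Galnt2 (0.084), and Cdh10 to the GABA-A receptor subunit gene Gabra5 (0.053) and Osbpl10 (0.064). Dis3l2 was nearest to the kinesin gene Kif26b (0.076) and the actin-binding protein gene Afap1 (0.082). For the steeper falls the distances were larger. Dok5 was nearest to the synaptic adhesion gene Slitrk2 (0.12) and Nudt4 (0.13), Arhgap29 to the nuclear receptor gene Rorb (0.14) and Nudt4 (0.17), and Snx7 to Nudt4 (0.18) and the neuropeptide Y receptor gene Npy1r (0.19). Nudt4, which encodes an inositol pyrophosphate phosphatase, stood at -0.91 log2 with arsenite in ATF4-deficient and -0.86 in wildtype neurons, with a genotype difference of 0.03 under vehicle.

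Ndnf and Nwd2, the genes with the largest genotype differences, had neighbours of their own. The second nearest gene to Ndnf was the CaMKII inhibitor gene Camk2n2 (0.20), which was at -0.54 with arsenite in ATF4-deficient and -0.51 in wildtype neurons and at -0.61 for genotype under vehicle. Nwd2 was nearest to Gucy1a1, a subunit of the nitric oxide receptor (0.18), and to 1700086L19Rik (0.19). Among the 8 genes themselves the closest pair was Cdh10 and Dis3l2 (0.10) and the farthest Nwd2 and Dis3l2 (0.49). The median distance to all genes was between 0.26 for Dis3l2 and 0.65 for Nwd2.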

How the data were processed

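The authors deposited log2 expression values for 41345 probe sets on 10 Affymetrix mouse arrays labelled with the WT PLUS kit. They were made by robust multiarray average (RMA) in Partek 6.6, per the submitters' processing notes. RMA equalises the arrays' distributions, which hides a shift common to most genes. Scanner files were not used here. The platform annotation gave 23521 probe sets exactly 1 gene symbol, 1814 several and 16010 none. The brightest probe set stood for each of 22180 genes, and 1082 genes had more than 1. Names and gene order came from RefSeq GRCm38.p6, which 23328 probe sets matched by Entrez identifier.

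Groups came from the sample titles. Limma 3.58.1 in R 4.3.3 fitted 1 mean per group to all 10 arrays (6 residual and 5.08 prior degrees of freedom), with Benjamini-Hochberg adjustment over all genes and a threshold of 0.05. The fit was tested on simulated data. The 8 genes and the lists were chosen with earlier results of these data known. Named genes were the 8, list members that passed, the 2 nearest patterns of each gene, and Atf4, Hmox1 and Slc7a11. All other list members, cell type markers and flanking genes named were added after their values were seen. The gene nearest to Ndnf is not reported here. Alternatives were a filter on dim genes, averaged probe sets, equal array medians, array weights, a robust trended prior, fits on the compared groups alone, a replicate block and leaving out each array. Intervals cover 95%, and the number of arrays limits precision.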

Additional observations from a re-analysis of the deposited data

How the results depend on the processing

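Under the 7 alternatives and with each of the 10 arrays left out, all 8 genes kept a negative change with arsenite in both genotypes. With single arrays left out this was fixed beforehand, as arsenite and vehicle arrays of a genotype did not overlap. Of 128 values of the difference between the falls, 0 passed. The counts of genes past the threshold moved more. They were 256 for arsenite in ATF4-deficient neurons, 107 for arsenite in wildtype neurons, 76 for genotype under arsenite and 96 for genotype under vehicle. With array weights they became 135, 186, 40 and 228. A filter on dim genes gave 171 for arsenite in wildtype and 206 for genotype under vehicle. With only the compared groups in the fit they were 0, 11, 41 and 0, and 0 of the 8 genes passed with arsenite in ATF4-deficient and 3 in wildtype neurons. With equal array medians 7 of the 8 passed in each genotype, Dgkz being at -0.54 in ATF4-deficient (adjusted p = 0.0663) and -0.53 in wildtype neurons (adjusted p = 0.0605). With averaged probe sets 6 passed in ATF4-deficient and 7 in wildtype neurons. With single arrays left out they ran from 50 to 200, 0 to 75, 1 to 64 and 0 to 99.

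Titles give the groups the same replicate numbers. Deviations of same-numbered arrays correlated at -0.06 to 0.40 and those of differently numbered arrays at -0.40 to 0.36. The ATF4-deficient vehicle and arsenite arrays gave 0.40 when same-numbered and -0.40 otherwise. In a group of 2 arrays the deviations mirror each other, which ties these values. Not every same-numbered pair was over 0.1, so the numbers were not taken to pair the arrays, though a pairing is not excluded. A fit with the replicate number as a block, in which wildtype arsenite replicates 3 and 4 no longer inform the contrasts, gave 286, 17, 4 and 165 calls, 8 of the 8 genes in ATF4-deficient and 4 in wildtype neurons, with Ndnf at -0.83 under arsenite (adjusted p = 0.0605) and Nwd2 at -0.75 under vehicle (adjusted p = 0.0480). With vehicle arrays alone in the fit, the genotype difference of Ndnf was -0.79 (adjusted p = 0.199).

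Signs turned only where the main value was near 0, and the largest value after a turn was 0.179, for Arhgap29 under vehicle. The difference between falls turned to 0.0312 for Dgkz with averaged probe sets and to -0.0413 for Ndnf with the block. The genotype difference of Dis3l2 under arsenite turned to 0.00366 with equal medians. With single arrays left out, the difference between falls ran from -0.102 to 0.0489 for Dgkz, -0.0329 to 0.0829 for Ndnf, -0.163 to 0.00977 for Dok5 and -0.0981 to 0.282 for Arhgap29. Genotype differences under arsenite ran from -0.0151 to 0.00304 for Dis3l2, -0.162 to 0.0112 for Snx7 and -0.0895 to 0.251 for Arhgap29, and under vehicle from -0.201 to 0.179 for Arhgap29 and -0.00417 to 0.101 for Snx7. The cause was not tested.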
